A study of Homo sapiens with 6 samples.

Results

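The cytosolic ribosomal protein genes encode the proteins of the ribosome outside mitochondria. They were followed through the differentiation of H9 cells, an established human embryonic stem cell line, into cardiac organoids, spheroid cultures grown as a model of the early heart. Members were all protein-coding genes outside chromosome Y whose name begins with RPL or RPS and a number, with an optional A, X or L ending, together with RPLP0, RPLP1, RPLP2 and RPSA. The kinase genes named RPS6K were left out. The rule gave 85 of the 58735 genes measured, 53 of the large subunit and 32 of the small subunit. Of these, 8 are paralog copies (RPL3L, RPL7L1, RPL10L, RPL22L1, RPL26L1, RPL36AL, RPL39L and RPS27L), and 77 are not. The name rule leaves out ribosomal protein genes with other names, such as FAU and RACK1.

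RNA was sequenced in 6 libraries, 1 each from day 0, day 2, day 3, day 4, day 6 and day 30. The labels give no treatment, agent or genotype beyond the H9 line and call the cells of every day embryonic stem cells, with 10 organoids harvested per time point. No day has a replicate, so differences between days cannot be tested and carry no p-value. Levels are FPKM, read counts divided by gene length and by a denominator of the library. Whole reads could be recovered, 13500887 to 15526924 per library. The 9 pluripotency markers summed to 11.3 FPKM at day 30 and 2260 FPKM at day 0, which goes against the label of embryonic stem cell on the last day. Over the same days 11 cardiomyocyte markers summed to 283 FPKM at day 30 and 5.48 FPKM at day 0, with all 11 at 1 FPKM or more at day 30. The sums at day 30 and day 0 were 1750 and 16.8 FPKM for 6 fibroblast markers, 539 and 0.166 FPKM for 5 liver markers, and 77.2 and 536 FPKM for 8 proliferation markers. The part of these changes in cell make-up in the values below was not tested. In bulk RNA fewer cells of a type and less RNA per cell cannot be told apart.

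Each ribosome holds 1 copy of nearly every ribosomal protein, so cells make these proteins in near-equal numbers. Their messenger RNAs are among the most abundant in growing cells. Most of them start with a cytosine and a run of pyrimidines, the 5' terminal oligopyrimidine (TOP) tract, through which mTOR signalling and the protein LARP1 control their translation. A few genes have paralog copies that are used in particular tissues. RPL3L is known from heart and skeletal muscle, and RPL39L and RPL10L are known from the male germ line in mouse.

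Start sites are shown for the members that lead or leave the common pattern, beside the partner gene of the copies shown. RPL10L was also matched and had no tract, and its start is not shown. Where a gene had several start sites, a site with a TOP tract was taken if there was any. RPL10 had 3 start sites and RPL26L1 had 2. Each line is 30 bases of the gene strand from RefSeq, build GRCh38.p14, with 15 bases before the annotated start and 15 from it on. Capitals mark a TOP tract, a C at the start followed by at least 4 C or T.
RPL13A, chr19:49487593-49487622, plus strand: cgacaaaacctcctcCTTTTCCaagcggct
RPL39, chrX:119791616-119791645, minus strand: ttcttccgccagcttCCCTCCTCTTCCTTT
RPL10, chrX:154398362-154398391, plus strand: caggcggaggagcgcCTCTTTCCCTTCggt
RPS26, chr12:56041903-56041932, plus strand: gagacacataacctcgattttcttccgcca
RPS28, chr19:8321481-8321510, plus strand: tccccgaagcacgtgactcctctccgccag
RPL22, chr1:6199581-6199610, minus strand: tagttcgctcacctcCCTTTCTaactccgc
RPL22L1, chr3:170870181-170870210, minus strand: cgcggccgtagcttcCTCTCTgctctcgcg
RPL26, chr17:8383179-8383208, minus strand: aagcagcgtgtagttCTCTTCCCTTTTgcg
RPL26L1, chr5:172958714-172958743, plus strand: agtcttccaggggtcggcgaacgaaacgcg
RPL36A, chrX:101390996-101391025, plus strand: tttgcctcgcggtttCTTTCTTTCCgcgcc
RPL36AL, chr14:49620612-49620641, minus strand: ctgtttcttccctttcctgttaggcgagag
RPS27, chr1:153990747-153990776, plus strand: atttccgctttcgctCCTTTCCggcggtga
RPS27L, chr15:63157463-63157492, minus strand: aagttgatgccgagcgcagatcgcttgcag
The tract of RPL39 fills all 15 bases shown after the start, and RPL26 and RPL10 have tracts of 12 bases. Among the copies shown, RPL22L1 has a tract of 6 bases, and RPL26L1, RPL36AL and RPS27L have none at the annotated start. RPS26 and RPS28 have none there either. When the start could shift by up to 5 bases either way, RPS28 and RPL36AL had a tract. RPS26, RPL26L1 and RPS27L had none even then.

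RefSeq start sites were matched for 68 members. The members without a match include RPL39L, RPL3L, RPL5, RPS2 and RPS15A. A TOP tract began at an annotated start of 47 of the 68 matched members (69.1%), against 5.14% of all 27305 genes with a start site. It was found in 46 of 62 members other than copies and in 1 of 6 copies. When the start could shift by up to 5 bases either way, 55 members (80.9%) and 25.22% of all genes had one. The TCT initiator, TCTTT or CCTTT with its second letter at the start, overlaps the tract and lay at the start of 11 members (16.2%), against 1.03% of all genes. In the window of 250 bases before to 50 after the start, on both strands, CCGGAAG, a motif of ETS factors, was in 24 members (35.3%) against 12.16% of all genes. AAGATGG, a YY1 motif, was in 9 (13.2% against 7.11%), and the TATA box TATAAA in 7 (10.3% against 13.99%).

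The members together took 4.46% of the recovered reads at day 0, 5.87% at day 2, 5.38% at day 3, 6.41% at day 4, 4.87% at day 6 and 4.15% at day 30. Counting error of these shares was small, with a 95% Clopper-Pearson interval of 6.39% to 6.42% at day 4. The share was thus lowest at day 30 and highest at day 4, followed by day 2. Day 30 was also lowest and day 4 highest without the 5 members with most reads (RPL13A, RPS2, RPLP0, RPL3 and RPL4), at 3.44% on day 30 and 5.18% on day 4. Large subunit genes held 2.68% (day 30) and 4.10% (day 4) of reads, and small subunit genes 1.48% (day 30) and 2.31% (day 4). The median FPKM of the 85 genes was 144 at day 0, 184 at day 2, 160.4 at day 3, 197 at day 4, 139 at day 6 and 167 at day 30. Share and median FPKM place day 30 differently. The denominator behind the FPKM was 0.826 times the read total at day 30 and 0.980 to 1.12 times on the other days.

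**Figure D1:**
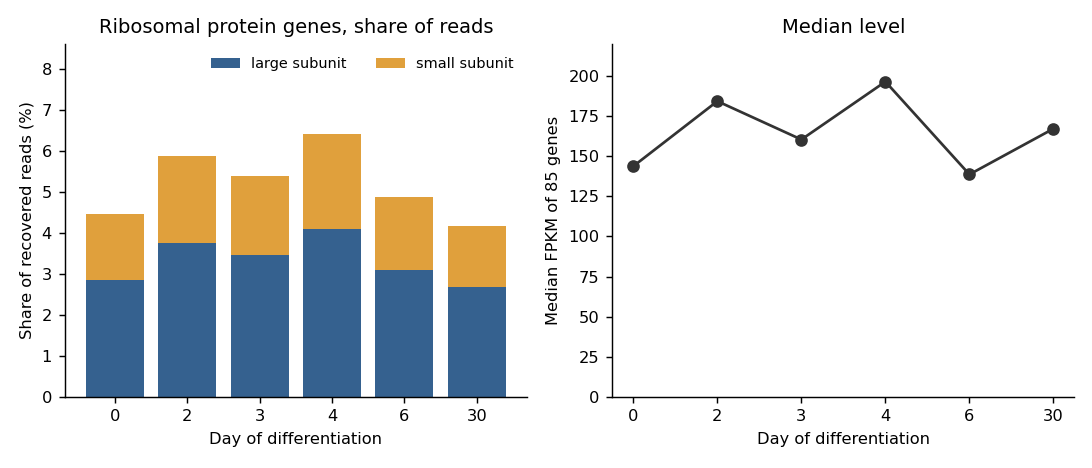
The left panel stacks the share of recovered reads taken by large and small subunit genes in the library of each day, in percent, and the right panel plots the median FPKM of the 85 genes. The summed share is lowest at day 30 (4.15%) and highest at day 4 (6.41%), while the median FPKM is lowest at day 6.

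Differences between days were taken on log2(FPKM + 1), which understates the change of low genes, for genes with at least 1 FPKM in either library. A gene was called at a difference of 1 or more. Folds are ratios of FPKM with exact 95% intervals that cover counting error only.

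From the first to the next library the members shifted upward. At day 2 against day 0 the median difference of 83 members was 0.34, against -0.03 over all 16019 genes tested, and 70 members lay above 0. Only RPS28, RPL26 and RPL36 were called higher and RPL39L was called lower, 4 of 83 members, where 16.5% of all genes were called. With read totals RPL39L was not called (-0.97), and RPL41 and RPL8 were called higher as well. At a difference of 0.5 or more, 26 members were higher and 2 lower (21.3% and 21.8% of all genes). Among members of high FPKM, RPL41, which encodes the shortest ribosomal protein, differed by 0.94 (733 FPKM at day 2 and 381 at day 0). RPL8 also differed by 0.94, with 783 FPKM at day 2 and 407 at day 0. RPS15A (-0.55), RPS27L (-0.48) and RPL21 (-0.40) lay lowest after RPL39L.

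At the next step the direction turned. At day 3 against day 2 the median of 83 members was -0.16, against -0.02 over all genes, and 7 members lay above 0. RPS26 and RPL22L1 were called lower and no member higher, where 12.1% of all genes were called. At 0.5 or more, 5 members were lower and none higher (17.6% and 19.9% of all genes). When each library was scaled to the same FPKM sum (TPM), the member median became 0.07 and that of all genes 0.23, so the sign of the member median depends on the scaling at this step. RPS27L, RPS29 and RPL37 lay highest, at 0.19, 0.06 and 0.04 with the deposited values. The members lay 0.14 below all genes with the deposited values and 0.15 below with TPM, but 0.09 below with a minimum of 5 FPKM. Genes of at least 50 FPKM in either library had a median of -0.16, the same as the members to 2 decimals.

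At day 4 against day 3 the median of 84 members was 0.26, against 0.00 over all genes, and 77 members lay above 0. No member was called, where 7.82% of all genes were. Members moved within a narrow range, with quartiles 0.18 apart, against 0.51 for all genes. The spread of all genes includes genes of low counts, which members mostly are not. Genes of at least 50 FPKM in either library had quartiles 0.57 apart and a median of 0.06. Of the higher members, RPL13 differed by 0.45 (267 FPKM at day 4 and 195 at day 3), RPL18 by 0.43 and RPL36A by 0.45. RPL3L differed by 0.75, from 48 reads at day 4 and 10 at day 3, and was the only member past 0.5 (12.3% of all genes were higher by that much and 11.7% lower). The lowest were RPL39L (-0.44), RPS27L (-0.28) and RPL26L1 (-0.20), all copies.

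Day 6 lay below day 4 for nearly all members. At day 6 against day 4 the median of 84 members was -0.44, against -0.01 over all genes, and 79 members lay below 0. Again no member was called, where 12.2% of all genes were, but 27 members were lower by 0.5 or more and none higher (17.4% and 15.4% of all genes). Genes of at least 50 FPKM in either library had a median of -0.25. Of 704 such genes 219 were lower by 0.5 or more and 99 higher. RPS27 (-0.78), RPL12 (-0.77) and RPL13A (-0.77) lay lowest after RPL3L (-0.90). RPL13A, the member with the highest mean FPKM, had 701 FPKM at day 0, 964 at day 2, 983 at day 3, 1100.1 at day 4, 645 at day 6 and 842 at day 30. RPS12, RPS2 and RPL7A, also among the 5 highest, were each lower at day 6 than at day 4. RPS12 had 634, 917, 771, 872, 607 and 892 FPKM on these days, and RPS2 had 601, 903, 801, 915, 662 and 639 FPKM. RPL7A had 451, 638, 597, 742, 499 and 512 FPKM. The 5 members above 0 at this step were RPL26L1 (0.33), RPL39L (0.20), RPS26 (0.16), RPS27L (0.06) and RPL22L1 (0.01), 4 of them copies.

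In the last step, day 30 against day 6, the median of 83 members was 0.20, against 0.08 over all genes. Only RPL39L was called, lower, where 36.3% of all genes were called. At 0.5 or more, 9 members were higher and 3 lower (34.9% and 29.8% of all genes). RPL10, RPL22L1 and RPL17 differed most upward, by 0.97, 0.79 and 0.75, and RPL7L1 and RPS10 lay lowest after RPL39L, at -0.62 and -0.51. At day 30 against day 0 the median was 0.18, against 0.13 over all genes. RPS28 was called higher, and RPS26 and RPL39L lower, 3 of 83 members, where 45.0% of all genes were called (25.9% higher and 19.1% lower). At 0.5 or more, 13 members were higher and 8 lower (39.3% and 31.6% of all genes). RPL36 (0.92) and RPL41 (0.86) lay next above, and RPL26L1 (-0.95) next below. The quartiles of the members were 0.53 apart and those of all genes 1.79. The sign of both medians depends on the scaling. With read totals they were -0.23 against day 6 and -0.06 against day 0, beside -0.33 and -0.11 for all genes. With TMM scaling they were 0.01 and 0.07. The place of the members relative to other genes also depended on the choice of genes and scaling. With a minimum of 5 FPKM the medians of the members and of all genes were both 0.20 against day 6, and with TPM both were 0.25 against day 0. Genes of at least 50 FPKM in either library had medians of 0.51 and 0.32, above those of the members.

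**Figure D2:**
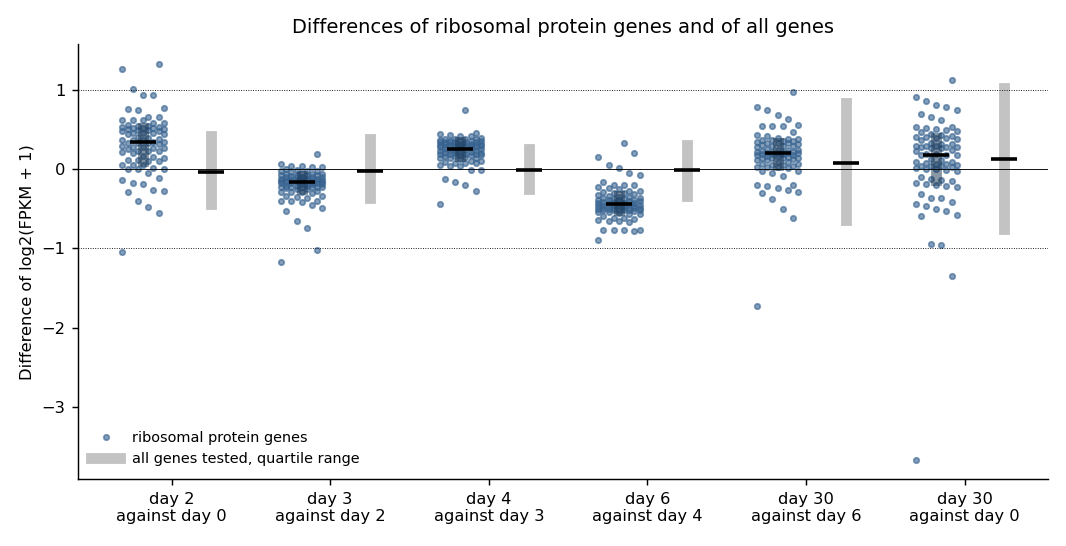
Each blue point is a ribosomal protein gene tested in a comparison of 2 libraries, placed by its difference of log2(FPKM + 1), later day minus earlier day. Thick bars give quartile ranges of the members (blue) and of all genes (grey), black dashes the medians, and dotted lines the call at 1. The member medians are 0.34, -0.16, 0.26, -0.44, 0.20 and 0.18, and the quartile range of the members is narrower than that of all genes in every comparison. Some members lie far outside it, such as RPL39L at day 30 against day 0.

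Of 82 members with at least 1 FPKM in every library, 45 were highest at day 4, 20 at day 2, 10 at day 0, 6 at day 30 and 1 at day 3. None was highest at day 6. Of all 10803 genes with this level in every library, 9.89% were highest at day 4, 15.2% at day 2 and 25.3% at day 0. A further 30.5% were highest at day 30, 8.34% at day 3 and 10.8% at day 6. The lowest day was day 0 for 37 members, day 6 for 33, day 30 for 8, day 3 for 3 and day 4 for 1. For all genes it was day 0 in 23.2%, day 6 in 16.7% and day 30 in 31.0%. Day 3 was lowest in 8.10% of all genes, day 4 in 10.6% and day 2 in 10.5%. The highest level was 1.58 times the lowest for the median member and 2.50 times for the median gene. RPL6 moved least, with 199 FPKM at day 0, 207 at day 2, 186 at day 3, 197 at day 4, 172 at day 6 and 198 at day 30.

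Members with and without a TOP tract at the annotated start, copies aside, differed most in size against day 0. At day 2 against day 0 the median was 0.45 over 46 members with a tract and 0.18 over 16 without. The split depends on the annotated base. When the start could shift by up to 5 bases, 53 of the 62 members had a tract. RPL3, RPL4, RPL10A, RPL19, RPL32, RPS7 and RPS28 then changed side, and medians were not taken for that split. At day 30 against day 0 the medians were 0.28 and 0.02. At day 3 against day 2 they were -0.14 and -0.20, at day 4 against day 3 they were 0.29 and 0.24, at day 6 against day 4 they were -0.50 and -0.43, and at day 30 against day 6 they were 0.19 and 0.20. The quartile ranges of both sets overlapped in every comparison, and no test was made. The median GC content of their transcripts was 49.0% and 49.5%.

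GC content moved with the differences from day 0. At day 2 against day 0 the member median was 0.14 for members under 47.5% GC, 0.37 in the middle class and 0.49 above 52.0% GC. All genes gave -0.25, -0.02 and 0.28 in the same classes. At day 30 against day 0 the member medians were 0.04, 0.06 and 0.33, and those of all genes -0.20, 0.10 and 0.52. With the median of all genes of like GC taken off each gene, the member median was 0.31 at day 2 and 0.02 at day 30, both against day 0. The part of GC in the member differences was not tested beyond this.

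Members were also grouped by their place in the ribosome. The stalk genes RPLP0, RPLP1 and RPLP2 encode the arm of the large subunit that recruits translation factors. Their median was 0.54 at day 2 against day 0, -0.14 at day 3 against day 2, 0.26 at day 4 against day 3, -0.47 at day 6 against day 4 and 0.18 at day 30 against day 6. RPLP0 had 424 FPKM at day 0, 537 at day 2, 486 at day 3, 594 at day 4, 416 at day 6 and 483 at day 30. RPL5 and RPL11, which carry the 5S ribosomal RNA and can bind the p53 regulator MDM2, differed in sign at day 2 against day 0. RPL5 had 305 FPKM at day 0, 249.9 at day 2, 221 at day 3, 249 at day 4, 203 at day 6 and 261 at day 30. RPL11 had 200.1, 255, 251, 307, 214 and 202 FPKM on the same days. RPL5 was thus highest at day 0 and RPL11 at day 4. Diamond-Blackfan anaemia is an inherited failure of red cell formation, and a list of 17 members mutated in it, which may be incomplete, was used. At day 30 against day 0 RPS26 of these was called lower and RPS28 higher. Of all genes 19.1% were called lower and 25.9% higher there. The call of RPS28 was lost when pseudogene reads were added. The median of the 17 was 0.05, beside 0.13 for all genes.

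**Figure D3:**
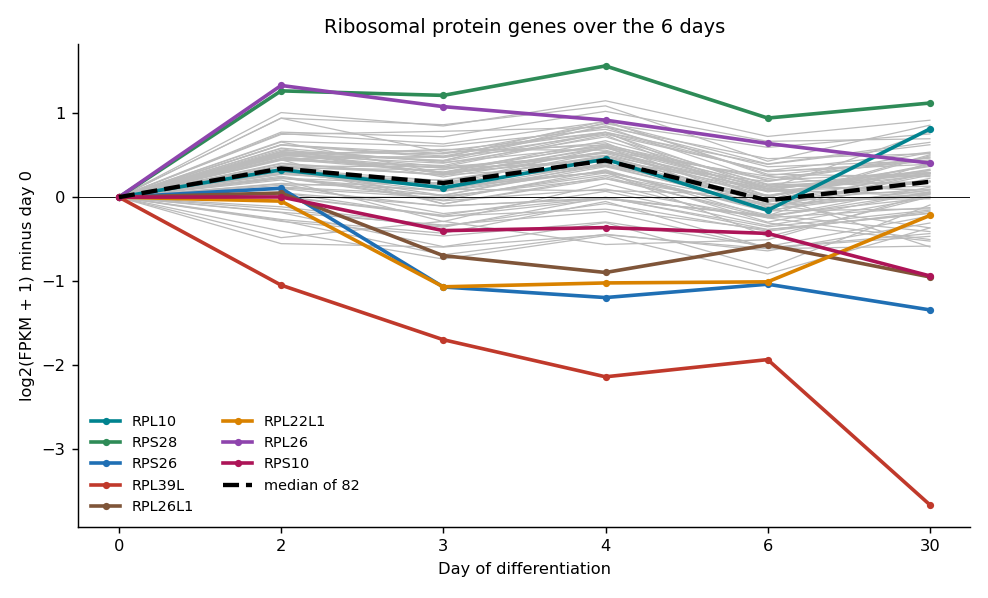
Lines give log2(FPKM + 1) of each gene minus its value at day 0, against the day, with days evenly spaced. Grey lines are members with at least 1 FPKM in every library, the black dashed line is the median of these 82, and coloured lines are members named in the text, RPS10 being under 1 FPKM at day 30. RPL39L ends at -3.67 and RPS26 at -1.34, while RPS28 ends at 1.12.

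RPL39L had the largest difference of all members. The gene (ENSG00000163923, chromosome 3, 187120948 to 187180908, minus strand, GRCh38) encodes a copy of RPL39, a small protein that lines the exit tunnel for the growing chain. It had 37.9 FPKM at day 0, 17.8 at day 2, 11.0 at day 3, 7.82 at day 4, 9.17 at day 6 and 2.06 at day 30, from 584, 304, 167, 131, 168 and 27 reads. Each library after day 0 was thus lower than day 0, and day 30 was lowest. RPL39L was 2.13-fold lower at day 2 than at day 0 (interval 1.85 to 2.45), 4.45-fold lower at day 30 than at day 6 (2.95 to 6.95) and 18.4-fold lower at day 30 than at day 0 (12.5 to 28.2). RPL39 was called in no comparison, with 65.5 FPKM at day 0, 101 at day 2, 94.4 at day 3, 121 at day 4, 99.3 at day 6 and 111 at day 30. The share of RPL39L in the FPKM of the pair was 36.7% at day 0, 14.9% at day 2, 10.4% at day 3, 6.07% at day 4, 8.45% at day 6 and 1.82% at day 30. Without gene length, RPL39L held 0.910% of the reads of the pair at day 30 and 22.3% at day 0, and per representative transcript length 0.485% at day 30 and 13.2% at day 0. Coding sequences of the pair are 94.8% identical with a shared run of up to 67 bases, so reads within it could be split or lost. Of 9 germ cell markers none reached 1 FPKM in any library.

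RPS26 (ENSG00000197728, chromosome 12, 56041351 to 56044697, plus strand) encodes a protein at the messenger RNA exit of the small subunit. It had 88.9 FPKM at day 0, 95.7 at day 2, 41.8 at day 3, 38.2 at day 4, 42.8 at day 6 and 34.4 at day 30. The values form a high pair of days, 0 and 2, and a low set of 4 later days. RPS26 was 2.29-fold lower at day 3 than at day 2 (interval 2.14 to 2.45) and 2.58-fold lower at day 30 than at day 0 (2.39 to 2.79). Named pseudogenes of RPS26 numbered 30 and held 16 to 37 reads per library in all, against 873 to 3165 of the gene. With TPM scaling the difference at day 3 against day 2 was -0.96, just inside the call.

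RPS28 (ENSG00000233927, chromosome 19, 8321158 to 8323340, plus strand), another protein of the small subunit at the messenger RNA exit, was the only member called higher at day 30 against day 0. It had 34.6 FPKM at day 0, 84.7 at day 2, 81.5 at day 3, 104 at day 4, 67.4 at day 6 and 76.5 at day 30. The value of day 0 lay below all later ones, and RPS28 was 2.45-fold higher at day 2 than at day 0 (interval 2.28 to 2.63) and 2.21-fold higher at day 30 than at day 0 (2.05 to 2.38). The processed pseudogene RPS28P7, of 210 bases on chromosome 11, took more reads than the gene. RPS28P7 had 3235 reads at day 0, 5051 at day 2, 4063 at day 3, 5954 at day 4, 4235 at day 6 and 3624 at day 30, against 1065, 2889, 2478, 3492, 2470 and 2002 for RPS28. With the reads of named pseudogenes added, RPS28 differed by 0.73 at day 2 against day 0 and by 0.62 at day 30 against day 0, and was no longer called in either. The call at day 30 against day 0 was also lost with read totals (0.88), with reads outside the members and the mitochondrial genome (0.79) and with the GC correction (0.86).

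RPL26, a large subunit protein near the tunnel exit, had 4.74 FPKM at day 0, 13.4 at day 2, 11.1 at day 3, 9.85 at day 4, 7.94 at day 6 and 6.60 at day 30. It was 2.84-fold higher at day 2 than at day 0 (interval 2.39 to 3.39), from 544 and 173 reads. With pseudogene reads, 166 at day 2 and 244 at day 0, its difference was 0.58 and not called. RPL36 had 60.8 FPKM at day 0, 123 at day 2, 110.3 at day 3, 136 at day 4, 101 at day 6 and 116 at day 30, and was 2.03-fold higher at day 2 than at day 0 (1.92 to 2.14). Taking off the median of genes of like GC left a difference of 0.52 for RPL36. RPL36 overlaps the coding gene HSD11B1L on its strand, and whether the overlap changed its counts was not tested.

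RPL10 joins the large subunit late in its assembly, near the site of peptide bond formation. It had 176 FPKM at day 0, 221 at day 2, 191 at day 3, 242 at day 4, 158 at day 6 and 311 at day 30. RPL10 followed the common course to day 6 and then stood 1.97-fold higher at day 30 than at day 6 (interval 1.92 to 2.01). Its difference of 0.97 lay 0.77 above the member median, and was 0.53 when libraries were scaled by read totals. Of the 5 other members highest at day 30, RPL28 had 128 FPKM there against 74.3 at day 0, and RPS7 had 114 against 85.6.

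Among the other copies, RPL22L1 was called lower at day 3 against day 2, where its partner gene was not called. That call was lost with read totals, with TPM and with the length or GC correction. A test of the difference between the genes of a pair was not possible. RPL22L1, a copy of the RNA-binding protein RPL22, had 15.2 FPKM at day 0, 14.7 at day 2, 6.71 at day 3, 6.96 at day 4, 7.04 at day 6 and 12.9 at day 30. It was 2.18-fold lower at day 3 than at day 2 (interval 1.87 to 2.56), at 224 and 549 reads. RPL22 had 27.9, 34.0, 31.1, 34.5, 26.5 and 21.5 FPKM on the 6 days, and was lowest at day 30. RPL22L1 therefore held 35.2% of the FPKM of the pair at day 0, 30.1% at day 2, 17.8% at day 3, 16.8% at day 4, 21.0% at day 6 and 37.6% at day 30. Low values stood in the middle of the course, and the intervals of the last and first days overlapped (34.8% to 40.3% at day 30 and 33.0% to 37.5% at day 0). Of the reads of the pair RPL22L1 held less, 21.3% at day 0, 9.12% at day 4 and 23.0% at day 30. Per representative transcript length it held 20.4%, 8.69% and 22.1% on these days. RPL26L1 had 16.3 FPKM at day 0, 16.9 at day 2, 9.64 at day 3, 8.26 at day 4, 10.6 at day 6 and 7.93 at day 30. Its difference of -0.75 at day 3 against day 2 was not called. RPL26L1 held 45.6% to 57.2% of the FPKM of its pair from day 2 on, against 77.4% at day 0. Per representative transcript length it held 31.3% to 42.1% from day 2 on, against 65.1% at day 0. Of the reads of the pair it held 28.0% to 38.3% from day 2 on, against 61.4% at day 0. RPL26 had 173 reads at day 0, fewer than the 244 of its named pseudogenes, while on later days the gene had more. RPL26 also overlaps another coding gene on its strand, so the shares of this pair are uncertain.

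RPL36AL held 95.7% to 98.0% of the FPKM of its pair, 80.8% to 90.2% of the reads, and 70.8% to 84.1% per representative transcript length. It had 67.7 FPKM at day 0, 107 at day 2, 82.9 at day 3, 93.6 at day 4, 71.5 at day 6 and 87.6 at day 30. RPL36A had 1.80 to 3.63 FPKM. The coding sequences are 89.9% identical with a shared run of up to 63 bases, and RPL36A overlaps the readthrough gene RPL36A-HNRNPH2 on the same strand, so the low value of RPL36A is uncertain. RPL7L1 had 14.8 FPKM at day 0, 19.5 at day 2, 15.8 at day 3, 15.7 at day 4, 15.1 at day 6 and 9.47 at day 30, and 3.50% to 6.76% of the FPKM of its pair with RPL7. RPL7L1 was 1.59-fold lower at day 30 than at day 6 (interval 1.47 to 1.72), below the call.

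RPS27L is a copy of RPS27 and a known target of p53. It had 6.28 FPKM at day 0, 4.21 at day 2, 4.97 at day 3, 3.92 at day 4, 4.12 at day 6 and 6.50 at day 30. The first and last days were the highest, and the ratio of day 30 to day 0 was 1.03 (interval 0.936 to 1.14). RPS27L held 1.79% of the FPKM of the pair at day 0, 0.933% at day 2, 1.11% at day 3, 0.674% at day 4, 1.21% at day 6 and 1.31% at day 30. Of 17 tested p53 targets, 8 were higher and 3 lower at day 30 against day 0, where 25.9% of all genes were higher and 19.1% lower. The higher ones include the growth arrest gene CDKN1A, with 119 FPKM at day 30 and 10.3 at day 0, and GDF15, with 194 and 16.4 FPKM. AEN fell by 1.72 and RRM2B by 1.32 on the log2 scale. RPS27L, at 0.04, was not called.

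RPL3L (ENSG00000140986, chromosome 16, 1943974 to 1957606, minus strand) stayed near 0. It had 0.424 FPKM at day 0, 0.383 at day 2, 0.253 at day 3, 1.10 at day 4, 0.126 at day 6 and 0.0880 at day 30, from 17, 17, 10, 48, 6 and 3 reads. Day 4 stood above the rest, 4.36-fold higher than day 3 (interval 2.18 to 9.66), and day 30 held a ratio of 0.208 to day 0 (0.0390 to 0.718). RPL3 had 329 FPKM at day 30 and 438 at day 0, and RPL3L held 0.0267% of the FPKM of the pair at day 30 (0.00551% to 0.0781%). In the same library MYH6, the atrial heart myosin, had 69.0 FPKM, and MYH7, the ventricular one, had 28.9 FPKM. Of 10 skeletal muscle markers only CKM, which heart muscle also makes, reached 1 FPKM at day 30. RPL10L had 0 reads in every library, and the exact 95% interval of its share in the reads of its pair with RPL10 reaches 0.0199% at day 30 and 0.0298% at day 0. The limit of 3 reads that a count of 0 allows is 0.0162% at day 30 and 0.0243% at day 0.

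**Figure D4:**
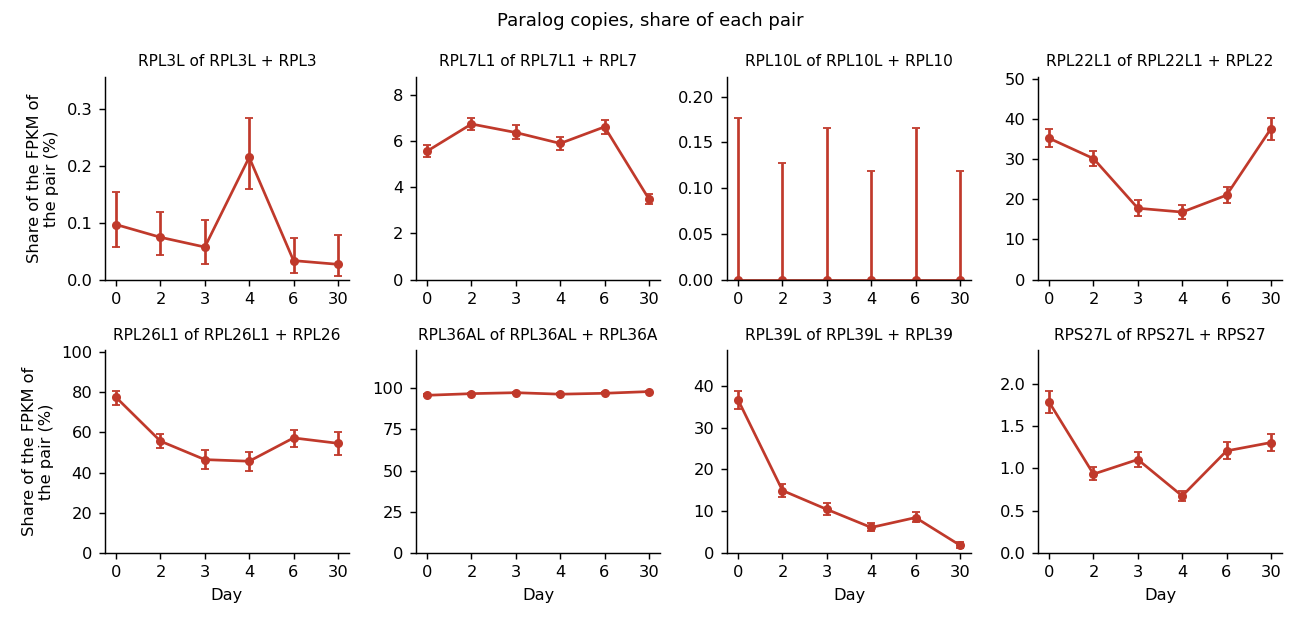
Each panel gives the share of a copy in the summed FPKM of the copy and its partner gene, in percent, for the library of each day. Bars are exact 95% intervals of counting error, and each panel has its own scale from 0. The share of RPL39L is 1.82% at day 30 and 36.7% at day 0, and that of RPL22L1 is lowest at day 4 (16.8%).

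The 4 lowest members by mean FPKM were RPL10L, RPL3L, RPS10 and RPL36A. RPS10, RPL36A and RPL17 overlap readthrough genes on the same strand (RPS10-NUDT3, RPL36A-HNRNPH2 and RPL17-C18orf32), and 9 members in all overlap another coding gene on their strand. RPS10 had 1.84 FPKM at day 0, 1.84 at day 2, 1.15 at day 3, 1.21 at day 4, 1.10 at day 6 and 0.481 at day 30, from 14 to 70 reads. Whether such overlaps or near-identical genes set these low counts was not tested. The deposited gene length is that of all exons of a gene together, 2.60 times the length of a representative transcript for the median member and up to 14.5 times. FPKM therefore understates members to unequal degrees, and levels are not ranked between genes beyond naming the extremes.

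The other parts of the translation machinery were compared by lists. Noncoding host genes of small nucleolar RNAs, many with TOP tracts of their own, had medians of 0.52 at day 2 against day 0, -0.22 at day 3 against day 2, 0.38 at day 4 against day 3 and -0.62 at day 6 against day 4. At day 30 against day 6 the median was 0.86, with 6 of 12 called higher and none lower, where 21.0% of all genes were higher and 15.3% lower. At day 30 against day 0, SNHG7 and SNHG12 differed by 2.16 and 2.09 and SNHG3 and SNHG1 by -1.23 and -0.66. Of 19 tested TOP messages of other proteins, 2 were higher and 1 lower at day 30 against day 0, with a median of -0.08, where 25.9% of all genes were higher and 19.1% lower. Their median was -0.14 at day 2 against day 0, -0.12 at day 3 against day 2, 0.16 at day 4 against day 3, -0.35 at day 6 against day 4 and 0.21 at day 30 against day 6. EEF1D and TPT1 differed by 1.20 and 1.02, IPO5 by -1.11 and EIF3E by -0.59.

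Genes that build ribosomes lay lower at day 30. Of 58 tested ribosome assembly factors 30 were lower and none higher at day 30 against day 0, with a median of -1.03, where 19.1% of all genes were called lower. The nucleolar protein gene RRS1 had 1.19 FPKM at day 30 and 10.9 at day 0, and WDR12 had 1.44 and 10.7 FPKM. SBDS, which frees the large subunit for translation, had 29.3 and 14.7 FPKM, and PPAN 2.35 and 0.906 FPKM. NPM1, an abundant nucleolar protein outside the naming rule and chosen after its values were seen, had 191 FPKM at day 30 and 525 at day 0. Of 14 genes of RNA polymerase I, which makes ribosomal RNA, 5 were lower and none higher, with a median of -0.60. POLR1B and CD3EAP differed by -1.50 and -1.40, and TAF1D and TAF1C by 0.93 and 0.34. Among 77 mitochondrial ribosomal proteins 25 were lower and none higher, with a median of -0.73. MRPS9 had 5.92 FPKM at day 30 and 34.3 at day 0, and MRPL3 had 9.81 and 47.8 FPKM, while MRPS6 and MRPS24 differed by 0.72 and 0.59. The summed FPKM of proliferation markers lay lower on the same day, as given above, and its part in these lists was not tested.

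Initiation factors and the proteasome had medians below 0 at day 30 against day 0. For the lists that follow, the shares of all genes were again 25.9% higher and 19.1% lower. Of 36 initiation factors 4 were lower and 1 higher, with a median of -0.35. EIF1 differed by 1.59 and EIF4A1 by 0.68, and EIF2B3 and EIF1AX by -1.77 and -1.64. Of 8 tested genes on the elongation factor list, 2 were higher (EEF1A2, 1.56, and EEF1D, 1.20) and 2 lower (EEF1E1, -2.37, and EIF5A, -1.42). EEF1E1 had 16 reads at day 30 and 225 at day 0. EEF1A1 had 2199 FPKM at day 30 and 2634 at day 0. Of 31 proteasome genes, a protein complex of similar size taken for comparison, 8 were lower and none higher, with a median of -0.59. PSMD1 and PSMB6 differed by -1.80 and -1.71, and PSMA6 and PSMA7 by 0.42 and 0.19. The mTOR pathway list with LARP1 had 3 higher and 1 lower of 17, both shares below those of all genes. Its median was 0.42, beside 0.13 for all genes. At 0.5 or more, 8 of its genes were higher and 4 lower (39.3% and 31.6% of all genes). DEPTOR, an inhibitor of mTOR, had 11.9 FPKM at day 30 and 1.10 at day 0, and AKT1S1 differed by 1.52. MTOR had 4.72 and 14.2 FPKM, and LARP1 differed by -0.81.

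**Figure D5:**
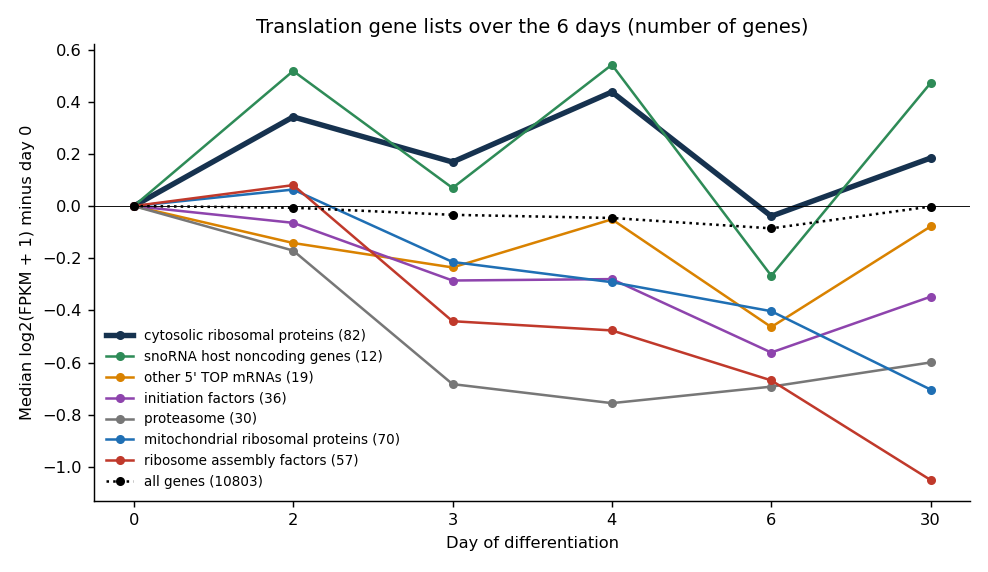
Lines give the median of log2(FPKM + 1) minus day 0 over the genes of each list with at least 1 FPKM in every library, against the day, with the number of genes in brackets. Members stay between -0.04 and 0.44, while ribosome assembly factors reach -1.05 and mitochondrial ribosomal proteins -0.70 at day 30.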

How the data were processed

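Poly-A RNA was fragmented and copied from random hexamers, per the labels' protocols. CASAVA, HISAT2 and featureCounts 1.5.0-p3 are named in the submitters' processing notes. Settings, genome build and strand use were not given in the sources used here. The authors deposited 1 table of FPKM values, already scaled by gene length and library, for 58735 genes and 6 libraries. All 85 members have the coordinates of GENCODE release 29 on GRCh38.

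FPKM times gene length gave whole reads within 0.001 read for 100% of the values above 0. Intervals cover counting error only. Reads were not counted by molecular identifiers. Members and lists were chosen with earlier results of these data known. Named members are the 3 highest and 3 lowest differences per comparison, those 1 or more from the member median, the 5 highest and 5 lowest by mean FPKM, the copies with their partners and the stalk genes, and in other lists the 2 highest and 2 lowest differences. NPM1, SBDS and some members were named beyond it after their values were seen, as were EEF1A1, MYH6, MYH7 and CKM. Some genes that the rule or the lists hold are not reported here. Values of members outside the rule are descriptive. Pseudogenes were matched by name. The procedure was tested on simulated reads. Tools were Python 3.11.15, numpy 2.4.6, pandas 2.3.3, scipy 1.17.1, matplotlib 3.10.9 and Biopython 1.88. Alternatives were another pseudocount, minimum, call, scaling, length or GC correction, pseudogene reads added and copies left out. The GC correction and the representative transcript length were chosen after seeing the data.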

Additional observations from a re-analysis of the deposited data

How the results depend on the processing

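No paired analysis was possible because each day had 1 library. Of 2943 values of named members under alternatives, 545 moved beyond their counting interval and no called value changed sign. With a call at 0.5, members called numbered 28 at day 2 against day 0, 5 at day 3 against day 2, 1 at day 4 against day 3, 27 at day 6 against day 4, 12 at day 30 against day 6 and 21 at day 30 against day 0. Adding pseudogene reads left 2 at day 2 against day 0, and read totals gave 5 higher and 0 lower there. At day 3 against day 2, 1 member (RPS26) was called with read totals, with the length or GC correction, or without copies, and 0 with TPM. A pseudocount of 0.1 gave 1 at day 4 against day 3, 1 at day 6 against day 4, 2 at day 30 against day 6 and 5 at day 30 against day 0. TPM gave 1 at day 4 against day 3, 1 at day 6 against day 4 and 2 at day 30 against day 6, and representative transcript lengths gave 1 at day 6 against day 4. At day 30 against day 6, scaling by read totals or by reads outside the members and the mitochondrial genome gave 2, and leaving out copies gave 0. The cause of these changes was not tested.

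With only coding genes outside the mitochondrial genome in the denominator, the read share was 4.97% at day 0, 6.41% at day 2, 5.70% at day 3, 6.98% at day 4, 5.22% at day 6 and 4.33% at day 30. With pseudogenes it was 4.65%, 6.10%, 5.61%, 6.68%, 5.08% and 4.34%, and without the 5 members with most reads 3.57%, 4.73%, 4.31%, 5.18%, 3.97% and 3.44%, on the same days. Day 4 was highest and day 30 lowest in each. With pseudocounts, minimum and the median-of-ratios or TMM scaling changed, the member median kept its sign in the comparisons run, but with TMM it was 0.01 at day 30 against day 6, with 45 of 83 members above 0, and 0.07 at day 30 against day 0. TPM moved the median of all genes to 0.23 at day 3 against day 2, -0.12 at day 4 against day 3, 0.18 at day 6 against day 4, -0.22 at day 30 against day 6 and 0.25 at day 30 against day 0. The member median at day 30 against day 6 was -0.11 with TPM and -0.27 with reads outside the members and the mitochondrial genome. Low counts limit RPL3L, RPL10L, RPS10 and RPL39L at day 30.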

Other observations

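Reads assigned to processed pseudogenes of the members did not always move with the gene they are named after. RPL7P1 had 315 FPKM at day 0, 161 at day 2, 138 at day 3, 163 at day 4, 136 at day 6 and 181 at day 30, while RPL7 had 250.5, 269, 232, 249, 213 and 261 FPKM on the same days. RPL7P1 was thus highest at day 0 and differed by -0.96 at day 2 against day 0, where RPL7 differed by 0.10. RPL39P3, of 156 bases, had 99.7 FPKM at day 0, 372 at day 2, 359 at day 3, 477 at day 4, 383 at day 6 and 417 at day 30. Its difference at day 2 against day 0 was 1.89, beside 0.62 for RPL39. RPL3P4 had 78.1 FPKM at day 0, 182 at day 2, 183 at day 3, 204 at day 4, 146 at day 6 and 115 at day 30. It differed by 1.21 at day 2 against day 0, where RPL3 differed by 0.23. Of 1144 pseudogenes named after members, 587 had a read in at least 1 library. Whether such reads came from the pseudogene or from the gene was not tested. These pseudogenes were chosen after their values were seen.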
